A study of Mus musculus with 11 samples.

Results

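The loci of Tcf7 and Lef1, the genes for the T cell factors TCF1 and LEF1, were described by the binding of Foxp3, Elf1, Ets1 and Cbfb in 2 windows of the mouse genome, build mm9. The Tcf7 window ran on chromosome 11 from 52055000 to 52145000 and took in the region before the start of the gene. The Lef1 window ran on chromosome 3 from 130790000 to 130950000. All deposited binding positions and Foxp3 peaks inside them were taken, which gave 583 of 1061984 entries, 227 at Tcf7 and 356 at Lef1. The windows were chosen with binding values of these same libraries known, so their counts are given as descriptions and carry no test. An mm9 annotation was not used here, so the limits of the genes inside the windows were not checked and no position is assigned to an exon, intron or untranslated region. In the RefSeq gene table for GRCm38.p6, Tcf7 (gene ID 21414) is 36857 bp long and lies between Skp1 and the long noncoding RNA gene Gm30217. Lef1 (gene ID 16842), 114061 bp long there, lies between the long noncoding RNA gene Gm36603 and Hadh. At widths of 90 and 160 kb the windows therefore also hold flanking sequence.

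Chromatin immunoprecipitation with sequencing (ChIP-seq) had been carried out on CD4 T cells from lymph nodes and spleen of mice of about 8 weeks, sorted on GFP, a fluorescent protein that reports Foxp3. Foxp3-positive regulatory T (Treg) cells were profiled for Elf1, Ets1 and Cbfb in 1 library per factor. Their Foxp3 peaks were called by the authors on combined replicates, from 3 Foxp3 libraries of which 2 are technical replicates of each other. Foxp3-negative T cells, named CD4 in the labels, were profiled for Elf1 and Ets1, again in 1 library per factor. The Treg input libraries and the CD4 Cbfb library were not analysed here. The strain is not given in the sources used here. Cell identity rests on the labels, since no RNA was measured in these libraries, and the Foxp3 antibody was a custom polyclonal one. With 1 library per group, differences between cell types had no replicate check, and no p-value is given.

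TCF1 and LEF1 are closely related high mobility group box proteins that bind DNA and can recruit beta-catenin, the coactivator of Wnt signalling. Both act in T cell development in the thymus, and both are abundant in naive T cells and fall as T cells become effectors. Elf1 and Ets1 belong to the ETS family, whose members bind a GGAA core. Cbfb binds no DNA itself and is the partner of the Runx proteins, whose core motif is TGTGGT. Foxp3, a forkhead protein, is the lineage factor of Treg cells.

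RefSeq lists 6 starts for these genes in GRCm38.p6, 2 for Tcf7 and 4 for Lef1, each with a promoter sequence from 250 bases before to 50 after the start. The sequence of the second Tcf7 start is shown because it holds the most GGAA cores of the 6, that of the first Lef1 start because it is the most upstream one, and that of the fourth because it holds TCF/LEF cores. Capitals mark the ETS core GGAA, the Runx core TGTGGT, the forkhead motif TGTTTAC and the TCF/LEF core CTTTGA, all read on both strands. The Tcf7 promoter is chr11:52282546-52282845 on the minus strand, and the Lef1 promoters are chr3:131110047-131110346 and chr3:131156044-131156343 on the plus strand, all in GRCm38.p6. Whether mm9 binding positions fall on them was not analysed here.

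Tcf7 start 2: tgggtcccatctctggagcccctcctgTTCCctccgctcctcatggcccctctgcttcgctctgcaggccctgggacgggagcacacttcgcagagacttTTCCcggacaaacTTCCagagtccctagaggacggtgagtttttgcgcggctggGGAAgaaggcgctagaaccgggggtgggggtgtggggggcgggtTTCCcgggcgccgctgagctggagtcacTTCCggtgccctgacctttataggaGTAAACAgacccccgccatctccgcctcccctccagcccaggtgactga

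Lef1 start 1: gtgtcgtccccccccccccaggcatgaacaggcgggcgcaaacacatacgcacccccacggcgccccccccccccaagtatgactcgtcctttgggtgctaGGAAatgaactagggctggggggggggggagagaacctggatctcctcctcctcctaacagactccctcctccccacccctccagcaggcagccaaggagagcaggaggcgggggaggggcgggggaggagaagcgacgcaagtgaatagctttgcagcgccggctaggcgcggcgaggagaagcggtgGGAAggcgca

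Lef1 start 4: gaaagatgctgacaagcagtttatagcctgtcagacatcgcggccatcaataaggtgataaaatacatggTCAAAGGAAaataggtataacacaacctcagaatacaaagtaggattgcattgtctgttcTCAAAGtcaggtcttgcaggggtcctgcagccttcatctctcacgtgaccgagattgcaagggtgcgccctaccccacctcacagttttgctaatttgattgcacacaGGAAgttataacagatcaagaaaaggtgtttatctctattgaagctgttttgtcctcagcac

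The Tcf7 sequence held 6 GGAA cores and 1 TGTTTAC. Among its cores was the longer ETS motif CGGAAGT, present in 6.42% of all 32851 RefSeq promoters. The first Lef1 start had 2 GGAA cores and no other motif searched. The fourth had 2 GGAA cores, 1 of them in AGGAAGT (9.35% of promoters), and 2 CTTTGA cores, of which the upstream one shares a G with a GGAA. The Runx core TGTGGT was in none of the 6 sequences. GGAA occurred in 96% of all promoters, with a median of 3, TGTGGT in 16.8%, TGTTTAC in 3.65% and CTTTGA in 16%. The longer ETS motifs were added after the sequences had been seen.

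At Tcf7, Ets1 was the most densely placed factor in both cell types. With positions kept at a false discovery rate (FDR) of at most 0.01, the window held 14 Treg Elf1, 28 Treg Ets1, 11 Treg Cbfb, 22 CD4 Elf1 and 55 CD4 Ets1 positions. These were 87.5, 63.6, 68.8, 50 and 56.1% of the deposited positions there. Over all deposited positions of the same 5 libraries, in the same order, 84, 27.3, 75.2, 22.2 and 17.4% passed. The FDR and the score beside it are the authors' values for each position. Ets1 positions in the window thus passed more often than those of the whole lists in both cell types, and so did CD4 Elf1, while Treg Elf1 and Treg Cbfb lay near their lists.

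Per length, Treg Ets1 reached 3.11 positions per 10 kb in the Tcf7 window (95% Poisson interval 2.07 to 4.50), which was 13.3 times its density over all numbered chromosomes. CD4 Ets1 reached 6.11 per 10 kb (4.60 to 7.95), or 37.4 times its genome density. For Elf1 the factor was 2.60 in Treg and 11.8 in CD4, and for Treg Cbfb it was 2.67. When the numbered chromosomes were cut into 27459 windows of the same width, 0.109% had at least as many Treg Ets1 positions and 0.0182% at least as many CD4 Ets1 positions. For Treg Elf1 and Treg Cbfb the shares were 3.97 and 1.85%, and for CD4 Elf1 0.135%. The lists differ in length and read depth is unknown, so these ratios rank the window within each library. Intervals cover counting error only.

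At Lef1 the same order held in CD4, but the Treg libraries were more even. The window held 31 Treg Elf1, 27 Treg Ets1, 24 Treg Cbfb, 35 CD4 Elf1 and 65 CD4 Ets1 positions. These were 73.8, 44.3, 85.7, 47.9 and 44.2% of the deposited positions there. Treg Ets1 stood at 7.21 times its genome density (4.75 to 10.5), Treg Elf1 at 3.24 times and Treg Cbfb at 3.28 times. CD4 Ets1 stood at 24.9 times (19.2 to 31.7) and CD4 Elf1 at 10.5 times. Of 15442 windows of this width, 0.44% had at least as many Treg Ets1 positions, 0.803% Treg Elf1, 0.0518% Treg Cbfb, 0.0583% CD4 Elf1 and 0.0389% CD4 Ets1. By these shares Lef1 thus ranked higher than Tcf7 for Treg Elf1, Treg Cbfb and CD4 Elf1, and Tcf7 higher for Ets1 in both cell types. By ratio to genome density CD4 Elf1 was instead higher at Tcf7 (11.8 against 10.5). The CD4 Ets1 shares stand for 5 windows at the width of Tcf7 and 6 at that of Lef1.

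**Figure D1:**
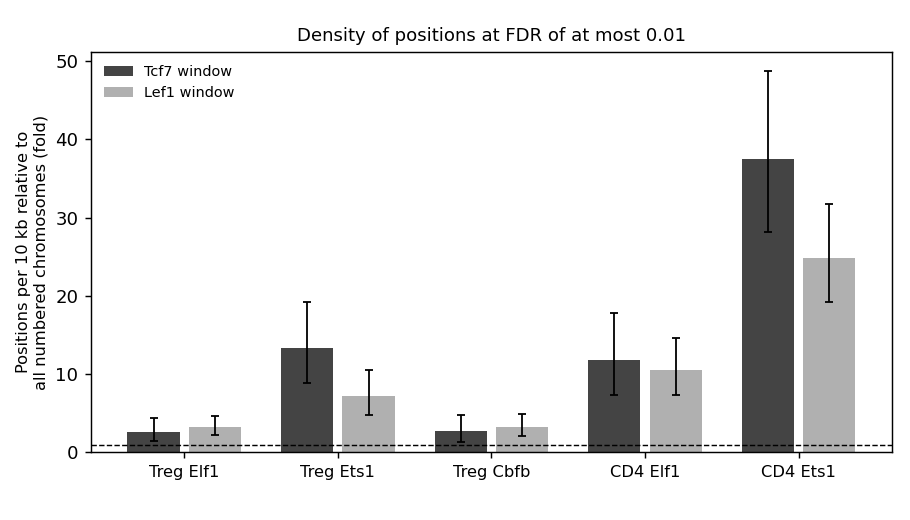
Bars give positions per 10 kb in the Tcf7 and Lef1 windows divided by the density over all numbered chromosomes, for each library, and lines give the 95% Poisson interval of the count. Among these 5 libraries of positions CD4 Ets1 stands highest in both windows, at 37.4 for Tcf7 and 24.9 for Lef1, and the dashed line marks the genome density.

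Lists cut to the 10000 highest scores, and so of equal length, gave a like picture for Ets1 at Tcf7. Such a list is 5.33% of the deposited Treg Elf1 positions, 4.42% of Treg Ets1, 6.18% of Treg Cbfb, 4.14% of CD4 Elf1 and 4.13% of CD4 Ets1. That window held 13 of the top Treg Ets1 positions and 23 of the top CD4 Ets1 positions, against a mean of 0.352 and 0.358 per window of this width. It held only 1 top Treg Elf1, 2 top Treg Cbfb and 3 top CD4 Elf1 positions. At Lef1 the top lists had 7 Treg Elf1, 3 Treg Ets1, 2 Treg Cbfb, 8 CD4 Elf1 and 14 CD4 Ets1 positions. By this measure Treg Elf1 outnumbered Treg Ets1 at Lef1, while at Tcf7 Treg Ets1 outnumbered Treg Elf1.

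Foxp3 had 9 peaks at Tcf7 and 5 at Lef1. Each peak is an interval of 200 bp without a score. At Tcf7 the peaks lay between 52079172 and 52132310, and 3 of them, between 52127646 and 52128110, overlapped, so that 7 separate stretches were bound. At Lef1 they lay between 130814858 and 130911718 in 5 separate stretches. Foxp3 peaks stood at 86.4 times their genome density at Tcf7 (39.5 to 164) and 27.0 times at Lef1 (8.76 to 63.0). The 3 overlapping peaks of Tcf7 are counted singly in its ratio. The Foxp3 list is far shorter than the 5 lists of positions, so its ratios are not ranked against theirs. The mean over the tiled windows was 0.104 peaks for the width of Tcf7 and 0.185 for that of Lef1. At least 9 peaks were found in 4 of 27459 windows (0.0146%) and at least 5 in 72 of 15442 (0.466%).

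Nearly all of these Foxp3 peaks had Elf1 and Ets1 beside them, in both cell types. Within 200 bp of the interval, Treg Elf1 had a position at all 14 peaks, Treg Ets1 at 12, Treg Cbfb at 8, CD4 Elf1 at 13 and CD4 Ets1 at 13. Over all 2886 Foxp3 peaks of the genome, 85.2% had Elf1, 83.5% Ets1 and 28.1% Cbfb in Treg, and 88.9% had Elf1 and 89% Ets1 in CD4. The windows were chosen on these values, so nothing is read from the difference. In each cell type every peak had at least 1 of the ETS factors. All 5 libraries were present at 3 of 9 peaks at Tcf7, the 3 that overlap, and at 4 of 5 at Lef1, where peaks 1 and 2 share positions. The genome share for all 5 was 20.7%. The nearest positions lay at a median distance from the peak centre of 86.5 bp (Elf1), 65.5 bp (Ets1) and 72.5 bp (Cbfb) in Treg, and of 69 bp (Elf1) and 29 bp (Ets1) in CD4.

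**Figure D2:**
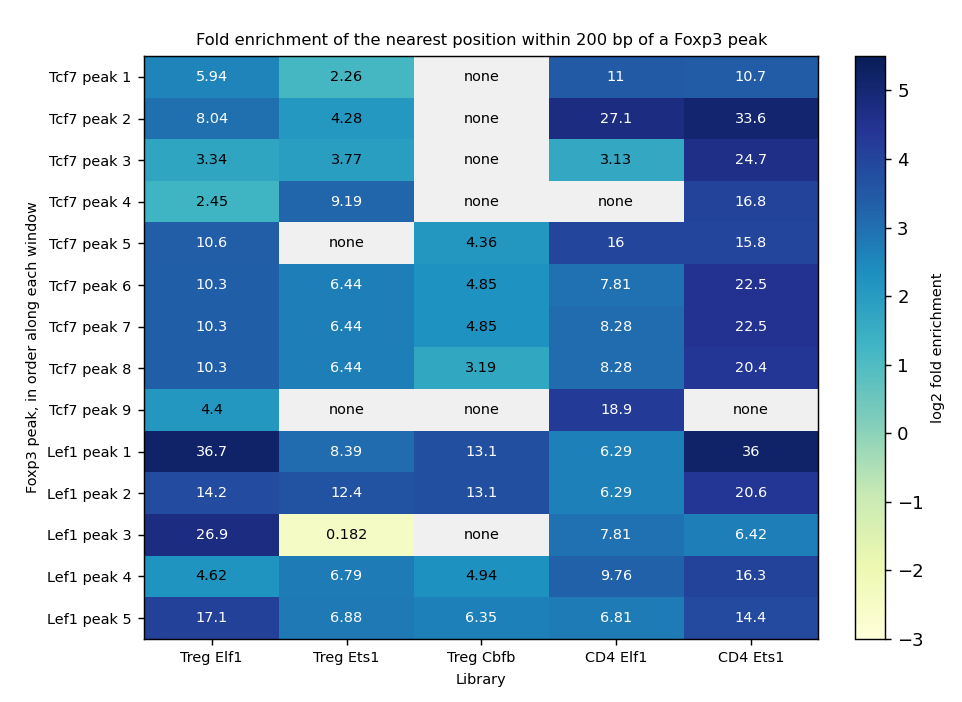
Rows are the 14 Foxp3 peaks in order along the Tcf7 and Lef1 windows, columns are the 5 libraries, and each cell gives the authors' fold enrichment of the position nearest to the peak centre among those within 200 bp of the interval. CD4 Ets1 exceeds Treg Ets1 in all rows that have both. Cbfb has no position at an FDR of at most 0.01 at Tcf7 peaks 1 to 4 and 9 and at Lef1 peak 3.

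The overlapping Foxp3 peaks of Tcf7 marked the site with the most libraries in that window. Positions of all libraries were joined into sites where neighbours lay at most 200 bp apart. This site ran from 52127641 to 52128136, with 9 positions of all 5 libraries. Fold enrichment, the authors' maximum likelihood estimate over a control that is not stated, was 10.3 (Elf1), 6.44 (Ets1) and 4.85 (Cbfb) in Treg at the position of highest score, against 8.28 (Elf1) and 22.5 (Ets1) in CD4. By score the Cbfb position at 52127839 was rank 264 of its library, and the CD4 Ets1 position at 52127818 was rank 666. Treg Ets1 had its highest score of the window here, at rank 1830. CD4 Ets1, Treg Ets1 and Treg Cbfb thus all peaked here, while both Elf1 libraries scored higher elsewhere in the window.

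Foxp3 peaks 1 and 2 of Tcf7 carried Elf1 and Ets1 without Cbfb at the FDR limit. A deposited Cbfb position in peak 2, at 52081998, had 3.36-fold at an FDR of 0.0424. At peak 2, from 52081976 to 52082176, fold enrichment was 8.04 for Treg Elf1 and 4.28 for Treg Ets1, against 27.1 for CD4 Elf1 and 33.6 for CD4 Ets1. The CD4 Ets1 position was rank 703, close to the highest of the window, whereas the Treg Ets1 position was rank 4705. At peak 1, from 52079172 to 52079372, Treg Elf1 had 5.94 and Treg Ets1 2.26, against 11.0 for CD4 Elf1 and 10.7 for CD4 Ets1. Each of these values was lower in the Treg library than its CD4 partner, though the Elf1 positions of peak 2 lay 249 bp apart. Peak 3, from 52088956 to 52089156, was nearly equal in fold for Elf1, with 3.34 in Treg and 3.13 in CD4. It was not for Ets1, with 3.77 in Treg and 24.7 in CD4. By rank within their libraries, however, these Ets1 positions stood at 3764 in Treg and 6156 in CD4.

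The remaining Tcf7 peaks differed in which ETS factor was present. Peak 4, from 52113248 to 52113448, was an Ets1 site, with 9.19 in Treg and 16.8 in CD4. Elf1 there reached only 2.45 in Treg and had no position at the FDR limit in CD4. Peak 9, from 52132110 to 52132310, was an Elf1 site, with 4.40 in Treg and 18.9 in CD4, the highest CD4 Elf1 score of the window. Ets1 had no position at the FDR limit within 200 bp of peak 9 in either cell type. Among all deposited positions CD4 Ets1 had 1 there at an FDR of 0.0365, and Treg Ets1 had none. At peak 5, from 52123084 to 52123284, Elf1 had 10.6 in Treg and 16.0 in CD4, and CD4 Ets1 15.8. The only Treg Ets1 position deposited at peak 5 had an FDR of 0.0934.

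Ets1 at Tcf7 was spread over many positions besides the Foxp3 peaks. The longest stretch without a position of any library, 8835 bp from 52097756 to 52106591, divided the window. In its lower 50 kb lay 23 Treg Ets1 and 45 CD4 Ets1 positions, and in its upper 40 kb 5 and 10, a division made after the positions had been seen. Per 10 kb this was 4.6 below and 1.25 above in Treg, and 9 below and 2.5 above in CD4. Elf1 had 7 positions on either side in Treg, and 10 below and 12 above in CD4. Foxp3 was denser above, with 6 of its 9 peaks there. Ets1 was thus denser below the gap in both cell types, while Elf1 was not: it had 1.4 positions per 10 kb below and 1.75 above in Treg, and 2 below and 3 above in CD4. The highest Treg Ets1 score below the gap lay at 52096257 (6.79-fold, rank 3046), away from any Foxp3 peak. CD4 Ets1 had 2 positions at that site, the higher scoring at 52095897 (8.50-fold). The other, which counted as the counterpart of 52096257, had 6.56-fold at rank 18884. CD4 Elf1 had a position at 52096072 (31.5-fold).

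Cbfb at Tcf7 had few strong positions besides the overlapping Foxp3 peaks. The next by score lay at 52110035, with a fold enrichment of 9.58 and rank 2200, and no other library had a position at that site. Of the 11 Cbfb positions, 9 had a lower bound of enrichment under 1-fold (81.8%), against 63.0% of all Cbfb positions at this FDR. In the Treg Ets1 library 14 of 28 were under it (50%, against 57.7% of its list), and in the CD4 Ets1 library 9 of 55 (16.4%, against 38.8%). Most Cbfb positions here thus had a lower bound that did not clear 1-fold, and most CD4 Ets1 positions had one that did. Both were also so over the whole lists. At Lef1 12 of 24 Cbfb positions were under 1-fold (50%), a smaller share than in the Cbfb list.

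**Figure D3:**
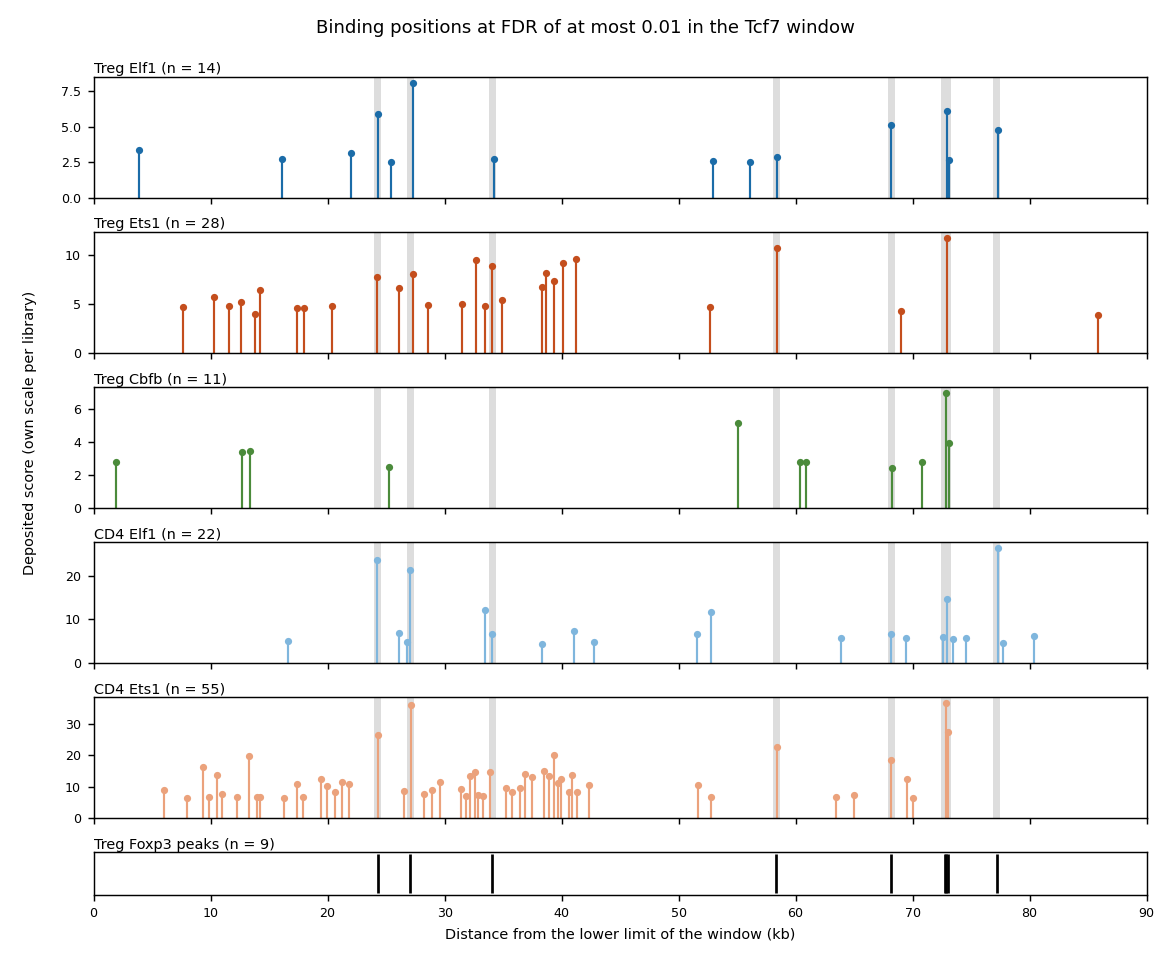
Each panel gives the deposited scores of one library along the Tcf7 window, in kb from its lower limit, on that library's own scale. The bottom panel and the grey bands mark the 9 Foxp3 peaks. The single highest score of each library lies at a Foxp3 peak. Other high scores, such as those of Cbfb at 52110035 and Treg Ets1 at 52096257, do not.

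Lef1 had a compact group of 3 Foxp3 peaks in the lower part of its window and 2 isolated ones. The group lay between 130814858 and 130816350. At peak 1 fold enrichment in Treg was 36.7 (Elf1), 8.39 (Ets1) and 13.1 (Cbfb), against 6.29 for CD4 Elf1 and 36.0 for CD4 Ets1. At peak 2 the Treg Elf1 value was 14.2 and the CD4 Elf1 value 6.29, while Ets1 had 12.4 in Treg and 20.6 in CD4. At peak 3 Treg Elf1 had 26.9 and CD4 Elf1 7.81. The same CD4 Elf1 position, at 130815108, is nearest to peaks 1 and 2, and at peak 1 it lay 330 bp from the Treg one, too far to count as its counterpart. By fold, Elf1 was thus higher in the Treg library at the matched positions of peaks 2 and 3, and Ets1 lower at all 3. Fold and score did not go together here. The Treg Elf1 position of 36.7-fold was only rank 39717 by score, and the CD4 Elf1 position of 6.29-fold was rank 15079. The Cbfb position of 13.1-fold at peak 1 was only rank 52488. Some fold values recur exactly, as 13.1-fold for Cbfb does at 130854937 and 130936722, and the cause is not known. The Treg Ets1 position at peak 3 had a fold enrichment of 0.182 in spite of an FDR of 0.00249. The lower Ets1 value at peak 3, against 6.42 in CD4, rests on this position. Between peaks 2 and 3, beyond 200 bp of either, the shared Ets1 position at 130815839 had 8.66-fold in Treg and 7.80 in CD4.

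The uppermost Lef1 peak carried the strongest Cbfb and Ets1 scores of the window. Peak 5, from 130911518 to 130911718, had all 5 libraries within 120 bp of one another. Fold enrichment was 17.1 (Elf1), 6.88 (Ets1) and 6.35 (Cbfb) in Treg, against 6.81 (Elf1) and 14.4 (Ets1) in CD4. The Cbfb position was rank 162, the Treg Ets1 position rank 1868 and the CD4 Ets1 position rank 339. Peak 4, from 130860440 to 130860640, also had all 5, with 4.62, 6.79, 4.94, 9.76 and 16.3-fold in the same order. Its Cbfb position was rank 970, the second highest Cbfb score of the window.

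Lef1 also had strong ETS sites without Foxp3. The highest Elf1 scores of the window in both cell types lay in a site from 130820458 to 130821020, which held 8 positions of all 5 libraries, 4108 bp from the nearest Foxp3 peak. Elf1 had 38.7-fold at 130820909 in Treg (rank 1361) and 23.5-fold at 130820923 in CD4 (rank 3006). CD4 Ets1 had 24.5-fold at rank 612. The Treg Ets1 position of highest score there, at 130820631, had 1.53-fold at rank 7679. A further Treg Ets1 position at 130821020, the one nearest to that of CD4 Ets1, had 21.97-fold, close to the CD4 value, but a score of only rank 46946. Cbfb was weak by score, at rank 46519. A second such site, at 130863269 to 130863344, had Treg Elf1 at 41.6-fold and Treg Cbfb at 18.3-fold, and CD4 Elf1 at 28.2-fold, with no Ets1 position at the FDR limit in either cell type. A deposited CD4 Ets1 position at 130863236 had 8.84-fold at an FDR of 0.0365. No site with all 5 libraries lay away from Foxp3 at Tcf7. A site from 52107650 to 52107899 held 4 libraries, without Cbfb, but at most 4.07-fold. High fold values away from Foxp3 did occur at Tcf7. A site from 52093296 to 52093459 had Treg Ets1 at 21.97-fold (rank 7574) and CD4 Ets1 at 37.6-fold (rank 5860). These were the highest fold values of both Ets1 libraries in the window. CD4 Elf1 had 18.2-fold there, but at rank 51413.

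**Figure D4:**
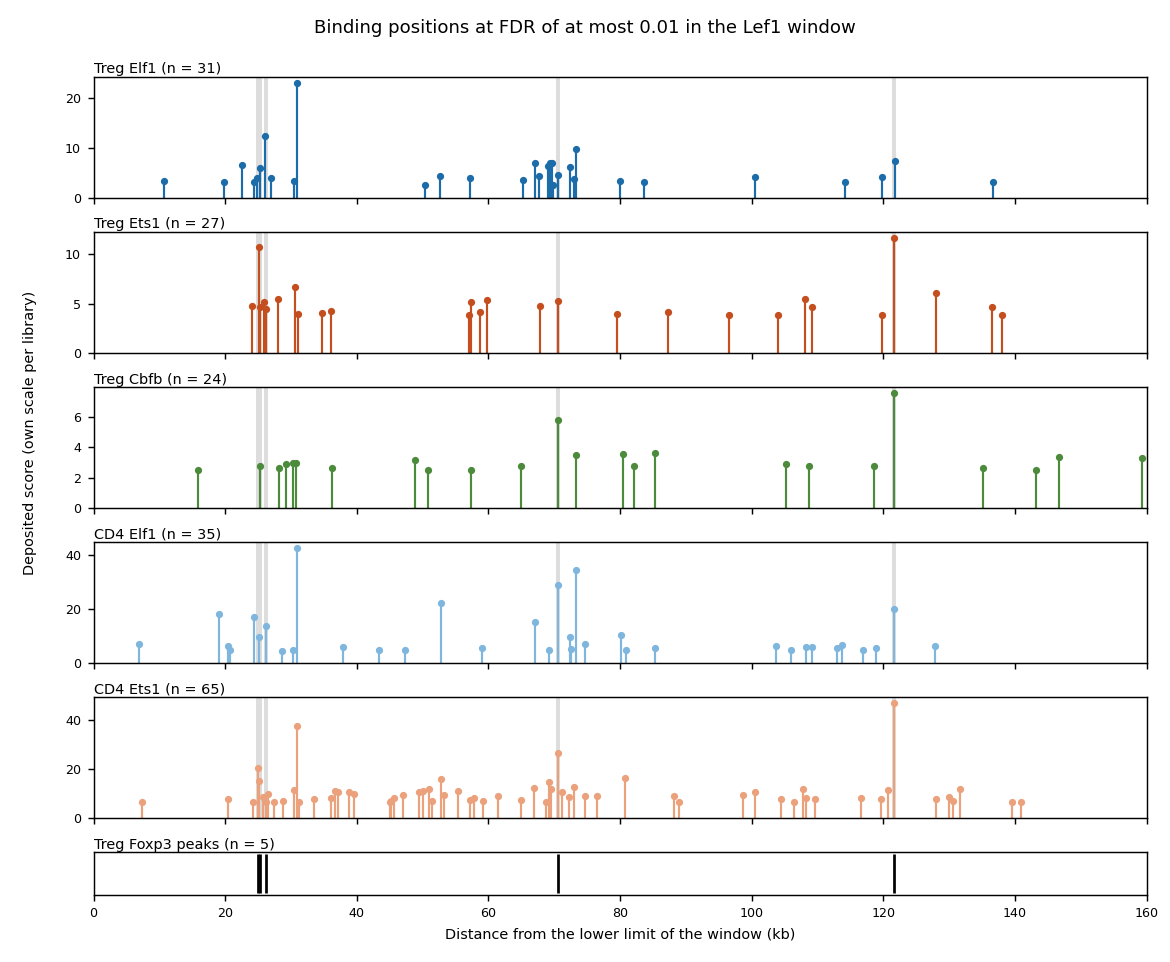
Each panel gives the deposited scores of one library along the Lef1 window, in kb from its lower limit, on that library's own scale, with the 5 Foxp3 peaks in the bottom panel and as grey bands. The highest Cbfb, Treg Ets1 and CD4 Ets1 scores lie at the rightmost Foxp3 peak, and the highest Elf1 scores of both cell types at a site near 30.9 kb with no Foxp3.

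Most of the Lef1 positions lay in the lower 90 kb of the window. That part held 26 of 31 Treg Elf1, 18 of 27 Treg Ets1, 16 of 24 Treg Cbfb, 25 of 35 CD4 Elf1 and 48 of 65 CD4 Ets1 positions. Its 4 Foxp3 peaks left 1 for the upper 70 kb, and this limit was also set after the positions had been seen. Beyond 130936722, itself a Cbfb position, the window held a single further position, of Cbfb at 130949353. Each of the 5 libraries had more positions per length in the lower part than in the upper one.

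Joined into sites, the positions gave 81 sites at Tcf7 and 114 at Lef1. Of these, 55 (67.9%) and 83 (72.8%) were seen in 1 library only, against 90% of all 371172 sites joined in the same way over the genome. Treg Ets1 alone accounted for 9 sites at Tcf7 (11.1%) and 10 at Lef1 (8.77%), against 11.6% of all sites. CD4 Ets1 alone accounted for 29 at Tcf7 (35.8%) and 38 at Lef1 (33.3%), against 5.62%. Ets1 was found in both cell types at 17 sites of Tcf7 (20.99%) and 11 of Lef1 (9.65%), against 3.1%. Elf1 was found in both at 7 (8.64%) and 12 (10.5%), against 4.64%. When the 3 sites with the highest score were taken in each library and window, 12 of 15 entries at Tcf7 and 8 of 15 at Lef1 lay at a Foxp3 peak. The entries repeat sites, with 8 distinct ones at Tcf7 and 7 at Lef1. The share over the whole lists was not analysed, and the windows were chosen on these values, so nothing is read from these entries. These counts rest on 1 library each.

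The comparison of Treg with CD4 asked how the ETS factors differ where they bind in both. At Tcf7, 16 of 28 Treg Ets1 positions had a CD4 counterpart within 200 bp (57.1%), and at Lef1 13 of 27 (48.1%), against 18.7% over the whole Treg Ets1 list. For Elf1 the numbers were 6 of 14 (42.9%) and 13 of 31 (41.9%), against 11.4%. From the CD4 side, 18 of 55 Ets1 positions at Tcf7 (32.7%) and 13 of 65 at Lef1 (20.0%) had a Treg counterpart, against 27.7%. For CD4 Elf1 the shares were 27.3% at Tcf7 and 34.3% at Lef1, against 32.5%. The shares at both loci lay above those of the whole lists from the Treg side, and from the CD4 side lay on either side of them.

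Fold enrichment of Ets1 at these shared positions was lower in the Treg library at both loci. At Tcf7 the log2 ratio of Treg over CD4 fold enrichment had a median of -0.88 (range -2.97 to 0.72, n = 16 positions), with 13 of 16 lower in Treg. At Lef1 it was -1.03 (range -5.14 to 0.25, n = 13), with 11 of 13 lower. The median over all 11551 shared Ets1 positions of the genome was -0.44, which lies inside the order-statistic 95% interval of either locus (-2.18 to -0.14 at Tcf7 and -1.30 to -0.16 at Lef1). A difference of at least 2-fold towards lower Treg values was seen at 7 of 16 and 7 of 13 positions, against 28.5% of all, and none was at least 2-fold higher, against 8.07% of all. Positions of one locus share their libraries and are not replicates, so these intervals cover the spread between positions only. With scores in place of fold enrichment the medians were -0.82 at Tcf7 and -0.76 at Lef1, less negative than the genome median of -0.94.

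By fold, all 10 shared Ets1 positions at the Foxp3 peaks of both loci were lower in Treg, with a median of 6.61 in Treg and 18.7 in CD4. These are set against 9 distinct CD4 positions, since 130815116 and 130815333 share one, and include the 0.182-fold position of Lef1 peak 3. By score rank within each library the order was mixed. At 52089042 the Treg position was rank 3764 and its CD4 counterpart rank 6156, whereas at 52082260 the ranks were 4705 and 703. Away from Foxp3, 14 of 19 were lower by fold, with medians of 3.60 in Treg and 6.88 in CD4. Over the genome 71.8% of shared Ets1 positions at Foxp3 peaks and 67.7% of the others were lower in Treg. The depth and control of the libraries are unknown, so library and cell type cannot be told apart in these ratios.

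By fold enrichment, the median Elf1 ratio was positive at Lef1 and negative at Tcf7, but the intervals of the loci overlap. At Lef1 the median log2 ratio was 0.56 (range -2.50 to 1.79, n = 13 positions), with 8 of 13 higher in Treg. At Tcf7 it was -0.66 (range -2.10 to 0.31, n = 6), with 4 of 6 lower. The Lef1 positions 130859119 and 130859368 share a CD4 counterpart of 3.13-fold, and both count as higher. The genome median was -0.17 over 17926 positions, inside the interval of both loci (-1.08 to 1.33 at Lef1 and -2.10 to 0.31 at Tcf7). The Lef1 value turned to -1.10 when scores took the place of fold enrichment, where the Tcf7 value was -1.65 and the genome median -1.31. With counterparts within 100 bp, the Lef1 value by fold was 0.03. At Lef1 4 of 13 shared positions were at least 2-fold higher in Treg (13.8% of all) and 3 of 13 at least 2-fold lower (19.4% of all). At Tcf7 0 of 6 were at least 2-fold higher and 1 of 6 lower. With 1 library per cell type, none of these ratios separates the cell types from the libraries.

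**Figure D5:**
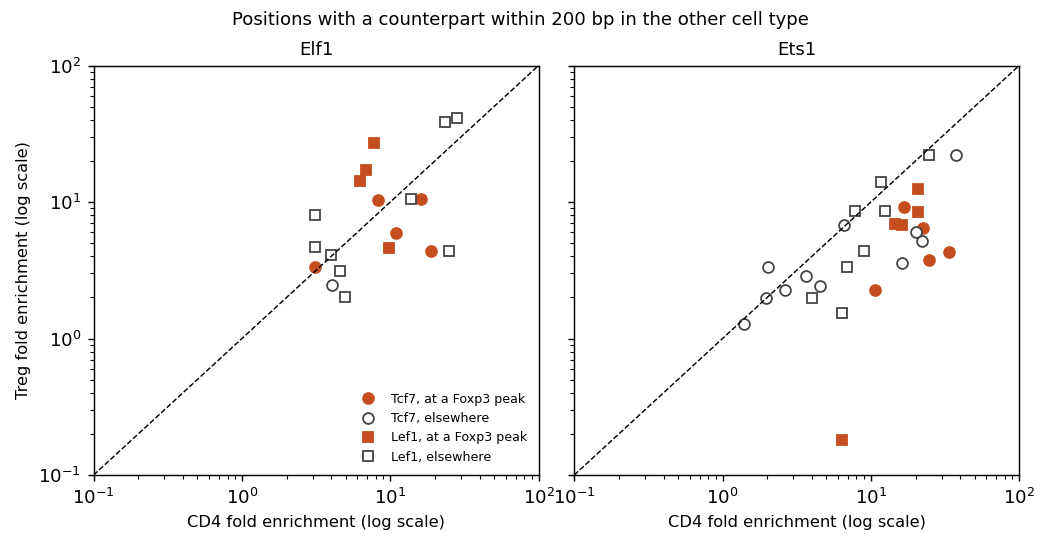
Each point is a Treg position with a CD4 counterpart of the same factor within 200 bp, with the Treg fold enrichment on the vertical and the CD4 fold enrichment on the horizontal axis, both on log scales. All 10 filled Ets1 points, at Foxp3 peaks, lie below the dashed line of equal values, and Elf1 points lie on either side of it.

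Most Treg positions had a deposited CD4 position of the same factor, at any FDR, within 1 kb. None of the Treg Ets1 positions at either locus was without a deposited CD4 Ets1 position within 1 kb, and 1 of 14 Treg Elf1 positions at Tcf7 and 4 of 31 at Lef1 were without a CD4 Elf1 position. In the other direction, 6 of 55 CD4 Ets1 positions at Tcf7 and 20 of 65 at Lef1 had no Treg Ets1 position, and 7 of 22 and 14 of 35 CD4 Elf1 positions had no Treg Elf1 position. Over the whole lists, 65% of Treg Elf1 and 51.7% of Treg Ets1 positions, and 49.4% of CD4 Elf1 and 39.2% of CD4 Ets1 positions, had no such counterpart. Each share in the windows was below that of its list, from 0% for Treg Ets1 to 40% for CD4 Elf1 at Lef1, and positions in the windows are also denser. The deposited lists were of unequal length, with 187745 Treg Elf1 and 226148 Treg Ets1 positions against 241359 CD4 Elf1 and 242086 CD4 Ets1 positions.

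The limits of the windows and of the FDR left values close on either side. Just below the Tcf7 window lay a CD4 Elf1 position at 117 bp, a Treg Elf1 position at 192 bp and a CD4 Ets1 position at 253 bp, and a Foxp3 peak was centred 9764 bp above it. Around Lef1 the nearest outside position was of Treg Elf1, 433 bp above, and no Foxp3 peak lay within 139654 bp. At the FDR limit, the last CD4 Ets1 position kept at Tcf7 had an FDR of 0.00986 and a score of 6.41, and the first left out 0.0102 and 6.35, with a fold enrichment of 23.1.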

How the data were processed

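Reads had been aligned by the authors with Bowtie 0.12.7 to mm9, per the submitters' processing notes. Per the labels, Foxp3 peaks came from combined replicates, and per the file headers the 5 other libraries were deposited as single-base positions with a score, an FDR, which is a kind of q-value, and an enrichment given as a ratio. The caller, its control and the read depth are not given in the sources used here. Peak limits and positions are used as deposited.

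Positions at an FDR of at most 0.01 were kept. Positions within 200 bp of a Foxp3 interval counted as present there, positions at most 200 bp apart were joined into sites, and a counterpart was the nearest position within 200 bp. Intervals are exact Poisson and, for medians, order-statistic intervals. The windows, motifs and lists were chosen with earlier results of these data known. Named positions are those at Foxp3 peaks and the 3 highest sites per library and window. Some sites away from Foxp3 are also named for their fold enrichment or number of libraries. Gene lists that need an mm9 annotation were not made. Promoters were matched by symbol, 6 for both genes. Other FDR limits, list lengths, window limits, distances and enrichment columns were tried. The functions were tested on simulated data. Python 3.11.15, numpy 2.4.6, pandas 2.3.3, scipy 1.17.1 and matplotlib 3.10.9 were used.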

Additional observations from a re-analysis of the deposited data

How the results depend on the processing

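Of 162 values under other settings, 114 kept their direction and stayed within 1.5 times the count or inside the interval of the value given above. Libraries are given below as Treg Elf1, Treg Ets1, Treg Cbfb, CD4 Elf1 and CD4 Ets1.

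The counts of positions followed the list. With an FDR of at most 0.001 they fell at Tcf7 to 8, 16 and 5 in the 3 Treg libraries, and at Lef1 to 10 (Treg Ets1), 8 (Treg Cbfb), 21 (CD4 Elf1) and 41 (CD4 Ets1). All deposited positions gave 44, 44 and 98 for Treg Ets1, CD4 Elf1 and CD4 Ets1 at Tcf7, and 61, 73 and 147 at Lef1. The 10000 highest scores gave 1, 13, 2, 3 and 23 at Tcf7 and 7, 3, 2, 8 and 14 at Lef1. The 20000 highest gave 4, 16, 3 and 7 for the first 4 libraries at Tcf7, and 11, 10, 2, 12 and 38 at Lef1. These lists hold fewer or more positions by construction. Windows wider or narrower by 10 kb on each side moved no count of positions or Foxp3 peaks by over 1.5 times.

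Foxp3 peaks with a position among the 10000 highest scores numbered 1 (Treg Elf1) and 3 (CD4 Elf1) at Tcf7. At Lef1 they numbered 2 (Treg Elf1), 3 (Treg Ets1), 2 (Treg Cbfb) and 2 (CD4 Elf1). Cbfb was at 2 Lef1 peaks also with an FDR of at most 0.001 and with the 20000 highest scores. Sites numbered 45 at Tcf7 and 71 at Lef1 when joined within 500 bp, 49 and 68 with an FDR of at most 0.001, and 27 and 17 with the 10000 highest scores.

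The Elf1 log2 ratio at Lef1 reversed to -1.10 with scores in place of fold enrichment. Scores have a scale of their own in each library, and the genome median moved to -1.31 with them. It was 0.03 with counterparts within 100 bp. The Ets1 ratio at Lef1 was -1.51 with the lower bound of enrichment. The other Ets1 ratios at both loci ran from -1.81 to -0.43 and stayed negative. With scores they were -0.82 at Tcf7 and -0.76 at Lef1, less negative than the genome median of -0.94. No paired analysis was possible because each compared group had 1 library and no test was made. Depth per library is unknown, so positions not called in a library may be missed and are not shown to be unbound.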
